A study of Rattus norvegicus with 21 samples.

Results

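Gfap, Vim, Nes and Synm encode the intermediate filament proteins of astrocytes, and their messenger RNA was followed here through isolation, culture, serum and serum withdrawal. The 4 genes were taken by symbol from 14217 genes with a probe set of their own. They were read by 6 of the 31042 probe sets of an Affymetrix rat genome array, 1 each for Gfap, Vim and Nes and 3 for Synm. Where a gene had several probe sets, the brightest over all arrays stood for it. The arrays held RNA of forebrain astrocytes from Sprague Dawley rats, in 7 groups of 3 biological replicates, 21 arrays in all. Withdrawn P7 cultures were astrocytes of postnatal day 7 (P7), isolated by panning on the integrin ITGB5, kept for 7 days in 10% foetal calf serum, washed, and kept 7 more days with the growth factor HBEGF, whose dose is not in their label. Serum P7 cultures were panned P7 cells after 7 days in 10% foetal calf serum. HBEGF P7 cultures were panned P7 cells grown for 7 days with HBEGF at 5 ng/ml. A characteristics label that calls them p1 was set aside for their title and source name. MD cultures were made from P1 forebrain, with 7 days in 10% foetal calf serum, by the method of McCarthy and de Vellis, which uses no panning. HBEGF P1 cultures were panned P1 cells grown for 7 days with HBEGF at 5 ng/ml. Fresh P7 cells and fresh P1 cells were panned and lysed without culture.

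Intermediate filaments are rope-like polymers that give cells mechanical strength. Gfap and Vim encode type III filament proteins that can form filaments on their own. Nes (nestin) and Synm (synemin) encode large proteins that do not form filaments alone and join those of vimentin. Nestin is known from neural progenitors and dividing cells, GFAP is the standard label of astrocytes and of gliosis, and vimentin is present in immature and reactive astrocytes.

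Every level below is the log2 of the authors' deposited intensity, and every change is a difference of group means on that scale, from limma fitted to all 21 arrays. To be called, a change had to reach 1 log2 unit in either direction, which is a 2-fold change, and an adjusted p under 0.05, with Benjamini-Hochberg adjustment over all probe sets of a comparison. SE is the moderated standard error, and it was 0.28 for Gfap, 0.11 for Vim, 0.37 for Nes and 0.44 for Synm in every comparison of a pair of groups. A rank test over arrays could not help, since 3 against 3 gives an exact two-sided permutation p of at least 0.1. In bulk RNA, fewer cells of a type and less RNA per cell cannot be told apart. The labels give no batch.

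The label of astrocytes was checked against 10 other astrocyte genes. Their mean log2 level ran from 12.90 to 12.98 on the arrays of fresh P7 cells and from 12.13 to 12.35 in fresh P1 cells. It was lowest in MD cultures, at 10.82 to 11.02, where Aldh1l1, a folate enzyme of astrocytes, averaged 8.65, against 12.50 in fresh P1 cells. Replicate 2 of the HBEGF P7 cultures stood apart on some measures before any test of the members. On it 773 genes lay more than 1 log2 unit away from both other arrays of its group, against 341 and 495 for replicates 1 and 3. Its mean over 8 fibroblast and meningeal genes was 8.98, against 10.58 and 10.64 on the other arrays of the group. Other measures did not single it out. Its mean over 8 proliferation genes was 11.13, against 9.57 for replicate 1 and 10.73 for replicate 3. Replicate 3 was highest in microglia and macrophage genes (7.15, against 5.80 and 5.50) and in neuronal genes (9.69, against 8.42 and 7.73). The median Spearman correlation with the rest of the group was 0.975, 0.968 and 0.970 for replicates 1, 2 and 3. Results that rest on HBEGF P7 cultures are also given without replicate 2 where a call changed or a value moved by over 1.5 times. The same was done for the partner genes named for those cultures. The fit pools 1 spread over all 7 groups, so these arrays also enter the SE of comparisons that do not use them. The SD in HBEGF P7 cultures was 1.37 for Synm and 1.02 for Nes, against at most 0.40 and 0.47 in any other group. They thus widen the SE of these genes in the other comparisons. An array was left out only in comparisons that use its group, so this part of the SE stayed in elsewhere.

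The RefSeq sequences just before the annotated starts of Gfap and Vim are shown because these are the type III genes among the members. Both were called against fresh cells. Each line gives 250 bases of the coding strand of the GRCr8 assembly, 5′ to 3′, ending at the base before the start. The Gfap window is chr10:88361662-88361911 on the minus strand and the Vim window is chr17:81577011-81577260 on the plus strand. Capitals mark matches, searched on both strands, to the letters of 3 core promoter elements. The element near the start that binds the TATA-binding protein was searched as TATAAA. The GC box, bound by Sp1, was searched as GGGCGG. The NF-Y element was searched as CCAAT, the letters that name it.
Gfap: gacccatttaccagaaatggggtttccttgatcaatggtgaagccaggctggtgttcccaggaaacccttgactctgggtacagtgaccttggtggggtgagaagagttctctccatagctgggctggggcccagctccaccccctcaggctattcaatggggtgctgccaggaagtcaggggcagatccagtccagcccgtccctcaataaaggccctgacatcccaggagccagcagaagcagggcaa
Vim: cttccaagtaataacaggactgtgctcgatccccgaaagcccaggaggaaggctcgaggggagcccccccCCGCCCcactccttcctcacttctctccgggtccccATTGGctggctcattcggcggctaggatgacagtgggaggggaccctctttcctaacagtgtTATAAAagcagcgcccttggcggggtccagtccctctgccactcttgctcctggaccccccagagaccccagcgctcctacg
The Vim window held a TATA box at -82 to -77, a CCAAT box on the minus strand at -144 to -140 and a GC box on the minus strand at -180 to -175, counted back from the start. The Gfap window held none of these letters. Neither window held an AP-1 site (TGANTCA) or a STAT site (TTCNNNGAA). Over 27457 rat windows of the same length, 13.1% held the TATA box, 34.3% the CCAAT box, 32.4% the GC box, 6.36% the AP-1 site and 7.52% the STAT site. A match to letters is a description and no evidence of binding.

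Gfap, the main filament protein of mature astrocytes, was among the brightest probe sets, the 116th of 31042 by mean over all arrays. Its log2 level was 14.72, 14.70 and 14.41 in withdrawn P7 cultures and 14.76, 14.68 and 14.62 in serum P7 cultures. It was 14.59, 13.64 and 14.64 in HBEGF P7 cultures and 12.74, 13.94 and 13.60 in MD cultures. It was 14.46, 14.20 and 14.53 in HBEGF P1 cultures, 14.04, 13.67 and 13.79 in fresh P7 cells and 12.03, 12.76 and 12.70 in fresh P1 cells. Fresh P1 cells were lowest, serum-exposed P7 cultures highest, and the MD arrays spread over more than a unit. By group mean the order was serum P7 (14.69 ± 0.07, SD, n = 3), withdrawn P7 (14.61 ± 0.18), HBEGF P1 (14.40 ± 0.17), HBEGF P7 (14.29 ± 0.56), fresh P7 (13.83 ± 0.19), MD (13.43 ± 0.62) and fresh P1 (12.50 ± 0.41). Of the 6 neighbouring pairs in that order, MD against fresh P1 differed at an adjusted p of 0.0158 in limma, with arrays that overlapped, and the other 5 pairs had adjusted p of 0.252 or more.

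Gfap rose with age and with culture of P1 cells. It was 1.34 log2 units (2.52-fold) higher in fresh P7 than in fresh P1 cells, with an adjusted p of 0.0159 in limma. The arrays did not overlap, as for 29.0% of all genes. The change missed the threshold without fresh P1 replicate 1 (1.10, adjusted p 0.0546) or without fresh P7 replicate 1 (1.23, adjusted p 0.0724). It was 1.90 units (3.73-fold) higher in HBEGF P1 cultures than in fresh P1 cells, at an adjusted p of 0.000134, and this call held with any 1 array left out. In P7 cells the change with HBEGF culture was 0.46, with a 95% interval of -0.14 to 1.06 and an adjusted p of 0.289, and it was 0.78 (adjusted p 0.0465) without HBEGF P7 replicate 2. The response to HBEGF culture differed by -1.44 between P7 and P1 cells (interval -2.29 to -0.60), which did not pass at an adjusted p of 0.114.

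Gfap in MD cultures lay between fresh P1 cells and HBEGF P1 cultures. It was 0.97 units lower than in HBEGF P1 cultures (adjusted p 0.0127) and 0.93 units higher than in fresh P1 cells (adjusted p 0.0158), both short of the limit of 1. Leaving out MD replicate 1, the lowest of its group, took the change over fresh P1 cells to 1.27 (adjusted p 0.00138), past the limit, and fresh P1 replicate 2 or 3 did so too, at 1.06 and 1.03. Without MD replicate 2 or 3, or HBEGF P1 replicate 2, the change against HBEGF P1 cultures passed the limit as well, at -1.23, -1.06 and -1.07. Leaving out 1 array could also weaken both changes. The change over fresh P1 cells went down to 0.67, with adjusted p in limma up to 0.0934. Against HBEGF P1 cultures it shrank to -0.63, with adjusted p up to 0.0835. Serum P7 cultures held 1.26 units more Gfap than MD cultures, called at an adjusted p of 0.00312 in limma. The 6 arrays did not overlap, as for 49.1% of all genes. Without MD replicate 1 that change was 0.92 (adjusted p 0.0209), under the limit. Gfap in serum and withdrawn P7 cultures was 0.85 and 0.78 above fresh P7 cells (adjusted p 0.0256 and 0.035), again short of the limit. On the serum P7 arrays Gfap stood at 72% to 79% of the brightest probe set. Whether the top of the scale shortened the changes of Gfap in P7 cells was not tested.

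**Figure D1:**
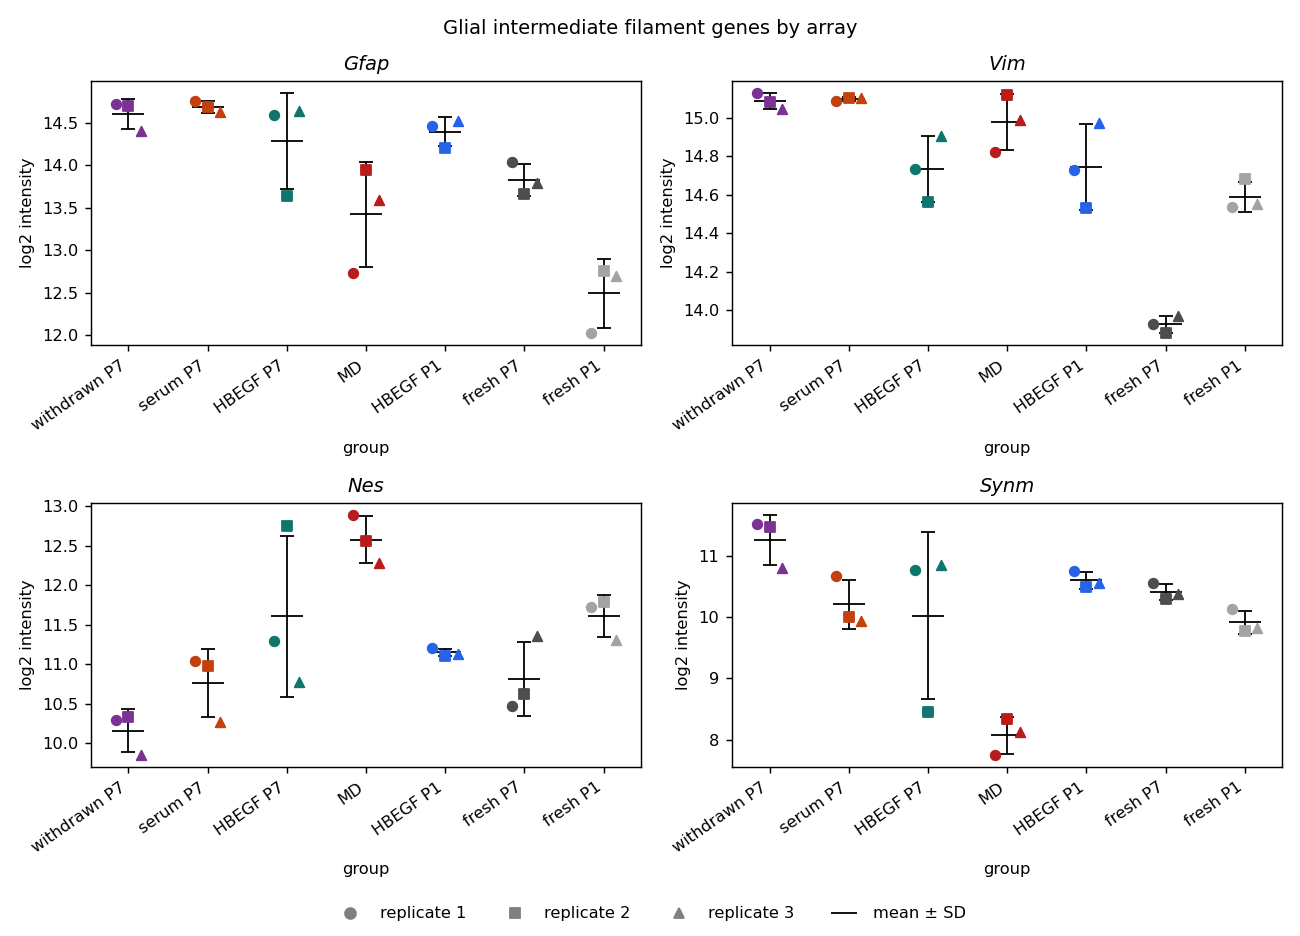
Log2 intensity of the lead probe set of Gfap, Vim, Nes and Synm on each of the 21 arrays, by group, with symbols for replicates and bars for the mean ± SD of 3 arrays. Gfap was lowest in fresh P1 cells (12.03 to 12.76) and Vim in fresh P7 cells (13.88 to 13.97), while MD cultures held the lowest Synm (7.75 to 8.34), and replicate 2 of the HBEGF P7 cultures (Nes 12.75, Synm 8.45) lay with the MD cultures in both lower panels.

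Vim, the filament protein that astrocytes share with mesenchymal cells, was the 6th brightest of all 31042 probe sets. Its log2 level was 15.13, 15.08 and 15.04 in withdrawn P7 cultures and 15.08, 15.10 and 15.10 in serum P7 cultures. It was 14.73, 14.56 and 14.90 in HBEGF P7 cultures, 14.82, 15.12 and 14.99 in MD cultures and 14.73, 14.53 and 14.97 in HBEGF P1 cultures. It was 13.93, 13.88 and 13.97 in fresh P7 cells and 14.54, 14.68 and 14.55 in fresh P1 cells. Fresh P7 cells lay below every other array, and the cultures lay within 0.60 units of each other. On the arrays outside fresh P7 cells, 0 to 29 probe sets were brighter than Vim, and it was the brightest of all on MD replicates 2 and 3 and serum P7 replicate 3. In fresh P7 cells 127 to 142 probe sets were brighter. The order of means was serum P7 (15.10 ± 0.01, SD, n = 3), withdrawn P7 (15.08 ± 0.04), MD (14.98 ± 0.15), HBEGF P1 (14.74 ± 0.22), HBEGF P7 (14.73 ± 0.17), fresh P1 (14.59 ± 0.08) and fresh P7 (13.93 ± 0.05). Of its 6 neighbouring pairs, fresh P1 and fresh P7 cells differed (adjusted p 0.00408 in limma), and the other 5 had adjusted p of 0.122 or more. With Vim this near the top of the scale, the scale leaves little room for a rise above these levels, and whether it shortened the changes was not tested.

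Fresh P7 cells held less Vim than fresh P1 cells, and every P7 culture held more than fresh P7 cells. The change was -0.66 in fresh P7 against fresh P1 cells (adjusted p 0.00408) and 0.81 in HBEGF P7 cultures against fresh P7 cells (adjusted p 6.57e-05), both short of the limit of 1. It was 1.17 in serum P7 cultures (adjusted p 5.53e-07) and 1.16 in withdrawn P7 cultures (adjusted p 5.24e-07) against the same fresh P7 cells, and these were called. The comparisons with fresh P7 cells share those 3 arrays. In P1 cells, HBEGF culture changed Vim by 0.15 with an interval of -0.09 to 0.40 (adjusted p 0.42), and MD culture by 0.39 (adjusted p 0.0126). The response to HBEGF culture was 0.65 larger in P7 than in P1 cells (interval 0.31 to 0.99), at an adjusted p of 0.0706 with all arrays and 0.0419 without HBEGF P7 replicate 2, in both cases short of the limit of 1. Vim in serum and withdrawn P7 cultures was 0.36 and 0.35 above HBEGF P7 cultures (adjusted p 0.0309 and 0.0328), and without HBEGF P7 replicate 2 these changes were 0.28 and 0.27 (adjusted p 0.132 and 0.142). Between withdrawn and serum P7 cultures the difference was -0.01, with an interval of -0.25 to 0.23.

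Nes, whose protein marks neural progenitors, ranked 2115th by brightness and was highest in MD cultures. Its log2 level was 10.30, 10.33 and 9.85 in withdrawn P7 cultures and 11.05, 10.97 and 10.26 in serum P7 cultures. It was 11.29, 12.75 and 10.78 in HBEGF P7 cultures and 12.89, 12.56 and 12.29 in MD cultures. It was 11.20, 11.11 and 11.13 in HBEGF P1 cultures, 10.47, 10.62 and 11.35 in fresh P7 cells and 11.73, 11.79 and 11.30 in fresh P1 cells. Apart from HBEGF P7 replicate 2, no array of another group reached the MD arrays. The order of means was MD (12.58 ± 0.30), fresh P1 (11.61 ± 0.27), HBEGF P7 (11.61 ± 1.02), HBEGF P1 (11.15 ± 0.05), fresh P7 (10.82 ± 0.47), serum P7 (10.76 ± 0.43) and withdrawn P7 (10.16 ± 0.27). The step from fresh P1 to MD had an adjusted p of 0.0493 in limma, but 0.054 or more with any 1 array left out. The other 5 neighbouring pairs had adjusted p of 0.415 or more.

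Nes was 1.43 log2 units (2.69-fold) higher in MD than in HBEGF P1 cultures, called at an adjusted p of 0.00592 in limma. The arrays did not overlap, as for 55.4% of all genes. Nes was 1.82 units lower in serum P7 than in MD cultures, called at an adjusted p of 0.00146. Both calls held with any 1 array left out. Against fresh P1 cells the change in MD cultures was 0.97 (adjusted p 0.0493), and with array medians centred it was 1.06 (adjusted p 0.0335). With any 1 array left out it ran from 0.81 to 1.11, with adjusted p in limma from 0.054 to 0.157. Withdrawn P7 cultures held 1.45 units less Nes than HBEGF P7 cultures (adjusted p 0.00946), and without HBEGF P7 replicate 2 the change was -0.88 (adjusted p 0.0428), under the limit. Against serum P7 cultures, the change in withdrawn P7 cultures was -0.60 with an interval of -1.39 to 0.18 (adjusted p 0.415, and 0.0322 in limma with these groups fitted alone and the replicate number as a block). In HBEGF P7 cultures Nes differed from fresh P7 cells by 0.79 (adjusted p 0.147), by 0.22 (adjusted p 0.65) without replicate 2, and by 1.20 (adjusted p 0.0247) without replicate 3. Serum P7 cultures differed from HBEGF P7 cultures by -0.85 (adjusted p 0.119), by -0.27 (adjusted p 0.547) without HBEGF P7 replicate 2 and by -1.26 (adjusted p 0.0189) without replicate 3.

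Synm, whose protein ties filaments to adhesion sites, showed the widest range of the 4 genes. Its log2 level was 11.52, 11.47 and 10.80 in withdrawn P7 cultures and 10.67, 10.01 and 9.94 in serum P7 cultures. It was 10.78, 8.45 and 10.85 in HBEGF P7 cultures and 7.75, 8.34 and 8.12 in MD cultures. It was 10.76, 10.49 and 10.55 in HBEGF P1 cultures, 10.56, 10.29 and 10.39 in fresh P7 cells and 10.13, 9.78 and 9.83 in fresh P1 cells. All 3 MD arrays lay below every other array, and withdrawn P7 cultures, with 10.80 and more, lay at the top next to HBEGF P7 replicate 3. Between the extremes, withdrawn P7 and MD cultures, Synm differed by 3.19 log2 units (9.13-fold, adjusted p 2.05e-05). The order of means was withdrawn P7 (11.26 ± 0.40), HBEGF P1 (10.60 ± 0.14), fresh P7 (10.41 ± 0.13), serum P7 (10.21 ± 0.40), HBEGF P7 (10.03 ± 1.37), fresh P1 (9.91 ± 0.19) and MD (8.07 ± 0.30). In that order, fresh P1 cells and MD cultures were the only neighbours with an adjusted p under 0.05 (0.00292), and the other 5 pairs had adjusted p of 0.277 or more.

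Synm fell in MD cultures against both of their P1 references. The change was -2.53 against HBEGF P1 cultures (5.77-fold lower, adjusted p 0.000219) and -1.84 against fresh P1 cells (3.58-fold lower, adjusted p 0.00292). Serum P7 cultures held 2.14 units more Synm than MD cultures (adjusted p 0.00146). These 3 calls held with any 1 array left out. Serum P7 cultures differed from fresh P7 cells by -0.20, with an interval of -1.13 to 0.72. Withdrawn P7 cultures were 1.05 above serum P7 cultures with an interval of 0.13 to 1.98, which did not pass at an adjusted p of 0.173. Same-numbered arrays of these groups deviated together (r from 0.24 to 0.53 over all probe sets), and with the replicate number as a block and these groups fitted alone, limma called this change at an adjusted p of 0.022. Against HBEGF P7 cultures the withdrawn cultures were 1.24 higher (adjusted p 0.0482), but without HBEGF P7 replicate 2 the change was 0.45 (adjusted p 0.205), and it was 1.11 and 1.13 (adjusted p 0.129 and 0.133) without withdrawn P7 replicate 1 or 2.

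The other probe sets of Synm were dim, with mean log2 levels of 6.14 and 4.74 over all arrays against 10.07 for the lead one, and neither was called in any of these comparisons. In MD against HBEGF P1 cultures they moved the other way. The first was 6.51, 6.56 and 6.60 in MD cultures and 5.85, 5.94 and 6.18 in HBEGF P1 cultures, a change of 0.57 (adjusted p 0.00522). The second was 4.95, 4.96 and 4.85 in MD cultures and 4.59, 4.61 and 4.61 in HBEGF P1 cultures, a change of 0.31 (adjusted p 0.0381). The fall of Synm therefore rests on its bright probe set, and averaging all 3 left -0.55 (adjusted p 0.0182) in that comparison.

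**Figure D2:**
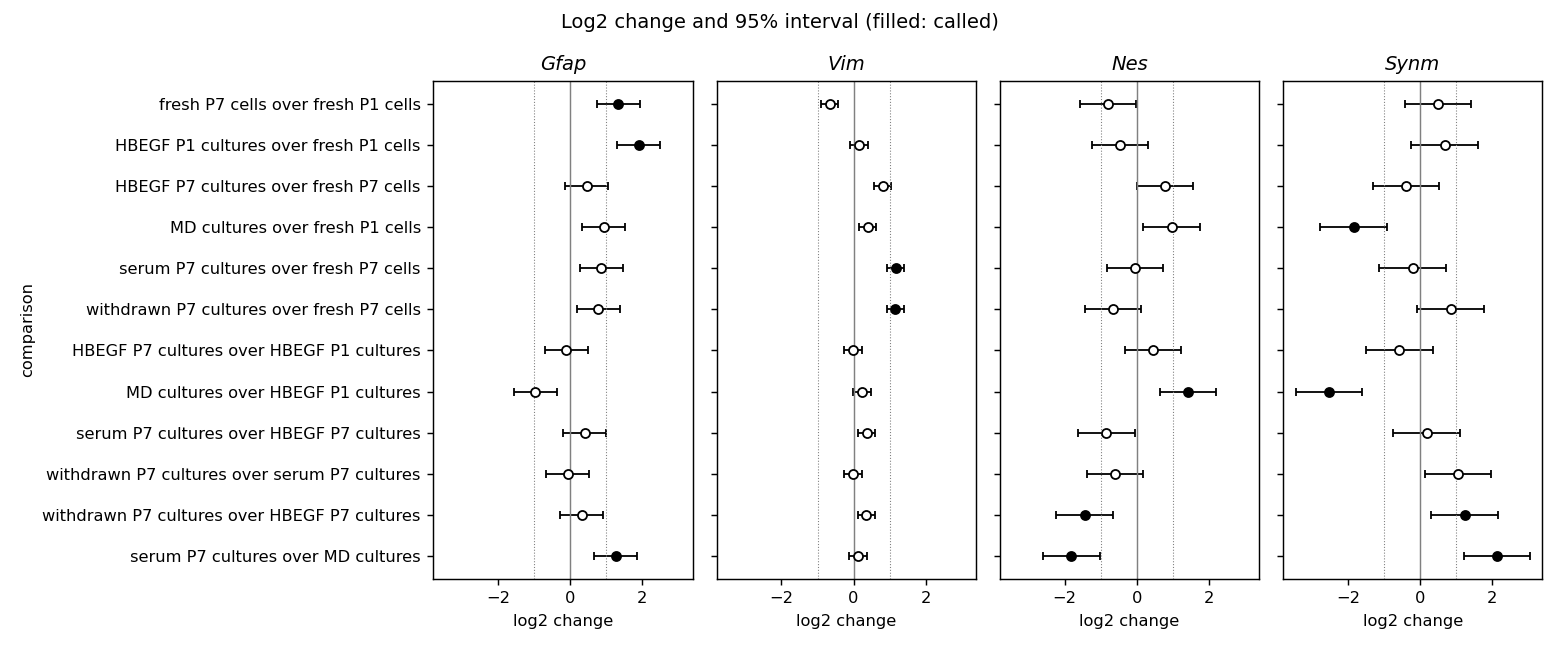
Log2 change of each gene (x axis) in the 12 comparisons of groups (y axis, first-named group over second), with 95% intervals, filled points for called changes and dotted lines at the limit of 1. Called changes of Vim stand only in serum and withdrawn P7 cultures over fresh P7 cells (1.17 and 1.16), and called changes of Nes and Synm point in opposite directions in MD over HBEGF P1 cultures (1.43 and -2.53) and in serum P7 over MD cultures (-1.82 and 2.14).

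The members were counted in each comparison and set beside the share of all 14217 genes called there in either direction. In fresh P7 against fresh P1 cells 1 of 4 was called (Gfap, higher), with 1.55% of genes called, and 0.957% without fresh P1 replicate 2. In HBEGF P1 cultures against fresh P1 cells it was again 1 (Gfap, higher), with 8.87% of genes called. MD cultures against fresh P1 cells had 1 called (Synm, lower), with 19.6% of genes called. Serum P7 and withdrawn P7 cultures against fresh P7 cells each had 1 (Vim, higher), with 18.2% and 22.1% of genes called. With 4 members, a count of 1 beside shares of 8.87% to 22.1% does not set the members apart.

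Among the 6 comparisons of cultures with each other, 3 had members called. In MD against HBEGF P1 cultures 2 of 4 were called (Nes higher, Synm lower), with 18.4% of genes called. In serum P7 against MD cultures 3 were called (Gfap and Synm higher, Nes lower), with 13.9% of genes called. Without MD replicate 1 Gfap was not called, which left 2, with 12.5% of genes called. Withdrawn P7 against HBEGF P7 cultures had 2 (Synm higher, Nes lower), with 11.7% of genes called, but 0 without HBEGF P7 replicate 2, where 8.93% of genes were called. In the other 3 comparisons of cultures limma called none of the 4. HBEGF P7 against HBEGF P1 cultures had 1.11% of genes called and 0 members at an unadjusted p under 0.05. That share was 2.05% without HBEGF P7 replicate 2, 0.689% without HBEGF P1 replicate 1 and 0.528% without HBEGF P1 replicate 2. With these groups fitted alone limma called 0 genes, with 1406 at an unadjusted p under 0.05 and 2308 with the replicate number as a block. Serum P7 against HBEGF P7 cultures had 9.30% (8.27% without HBEGF P7 replicate 2) and 2 members at an unadjusted p under 0.05 (Vim and Nes). Withdrawn P7 against serum P7 cultures had 4.50% and 1 such member (Synm), with shares of 2.90% without serum P7 replicate 1 and 2.37% without serum P7 replicate 2. Limma also called 0 members in HBEGF P7 cultures against fresh P7 cells, with 10.3% of genes called (12.4% without HBEGF P7 replicate 2) and 2 members (Vim and Nes) at an unadjusted p under 0.05.

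Tests of differences between responses were made for the same genes. Whether HBEGF culture changed a gene differently at P7 than at P1 gave 0 calls among the 4, with 0.816% of genes called and 3 members (Gfap, Vim and Nes) at an unadjusted p under 0.05. That share was 1.20% without HBEGF P7 replicate 2, and with other arrays left out it ran from 0.352% (fresh P1 replicate 2) to 2.41% (HBEGF P7 replicate 1). The serum contrast of panned P7 cells (serum over HBEGF) minus the contrast of MD over HBEGF P1 cultures gave 3 calls, with 11.3% of genes called. The difference was 1.37 ± 0.40 (SE) for Gfap (adjusted p 0.0316), -2.28 ± 0.52 for Nes (adjusted p 0.00788) and 2.71 ± 0.62 for Synm (adjusted p 0.00736), and 0.13 ± 0.16 for Vim. Without HBEGF P7 replicate 2 the differences were 1.04 for Gfap (adjusted p 0.0775, no longer called), -1.70 for Nes (adjusted p 0.00829) and 1.92 for Synm (adjusted p 0.00131), with 10.7% of genes called. MD cultures differ from HBEGF P1 cultures in medium and in preparation, and the contrasts differ in age, so these cannot be told apart in this difference.

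Nes and Synm ran against each other across the arrays. The 4 arrays with the highest Nes, 12.29 to 12.89, were the 4 with the lowest Synm, 7.75 to 8.45, namely the MD cultures and HBEGF P7 replicate 2. The mean level of the 8 proliferation genes (such as Mki67 and Top2a) was highest in MD and lowest in withdrawn P7 cultures. It was 8.68 to 8.85 in withdrawn P7, 10.24 to 10.43 in serum P7 and 11.40 to 11.68 in MD cultures, with 9.62 to 10.25 in HBEGF P1 cultures, 10.32 to 10.72 in fresh P7 cells and 10.77 to 11.00 in fresh P1 cells. Over the 21 arrays, which share groups and treatments, its Pearson correlation was 0.784 with Nes and -0.832 with Synm. Other marker lists also correlated with these genes. The fibroblast and meningeal list had -0.735 with Nes and 0.581 with Synm, and the astrocyte list had -0.621 and 0.701. The order of Nes and the proliferation genes was not the same everywhere. Serum P7 cultures lay above HBEGF P1 cultures in these genes at the mean but held less Nes (10.76 against 11.15), and HBEGF P7 replicate 3 (10.73) lay above replicate 1 (9.57) with Nes at 10.78 against 11.29. All 8 were above a log2 level of 6 in every group, and their part in the Nes and Synm results was not tested.

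**Figure D3:**
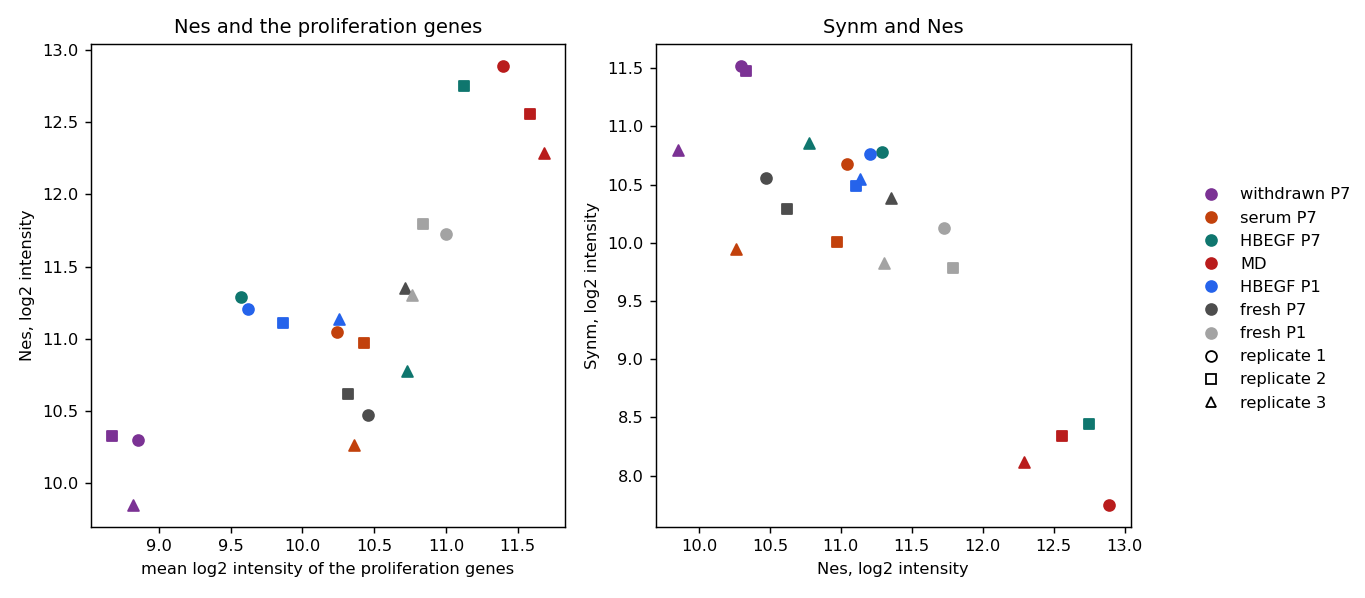
Left, Nes log2 intensity against the mean log2 intensity of 8 proliferation genes on each array. Right, Synm against Nes, with colours for groups and symbols for replicates. The 3 MD arrays and replicate 2 of the HBEGF P7 cultures form the corner with Nes at 12.29 and above and Synm at 8.45 and below.

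Markers of other cell types also moved with some of these groups. The mean of 8 fibroblast and meningeal genes, cells that carry vimentin as well, was 11.43 to 11.87 in withdrawn P7 and 11.77 to 12.36 in serum P7 cultures, against 9.05 to 9.81 in fresh P7 cells. Against fresh P7 cells all 8 genes rose in withdrawn P7 and 7 in serum P7 cultures. In MD cultures the mean was 7.91 to 8.11, against 8.71 to 8.84 in HBEGF P1 cultures and 8.10 to 9.21 in fresh P1 cells, and the list split. Against both, Col1a2, Fn1 and Thy1 rose in MD cultures and Col1a1, Col3a1, Dcn and Lum fell, Lum to a mean level of 4.58. The mean of 8 microglia and macrophage genes was 6.79 to 7.83 in withdrawn P7 against 5.52 to 5.78 in serum P7 cultures, with 2 of the 8 genes under a log2 level of 6 in the withdrawn cultures and 5 in the serum cultures. Neuronal genes averaged 8.35 to 8.39 in MD cultures, against 9.51 to 9.99 in HBEGF P1 cultures and 8.63 to 8.98 in fresh P1 cells. In MD against HBEGF P1 cultures 4 of the 8 fell (Dcx, Snap25, Rbfox3 and Map2), with a list median of -1.38. Oligodendrocyte lineage genes averaged 8.12 to 8.19 in MD cultures, against 9.30 to 9.98 in HBEGF P1 cultures, and 3 of the 7 measured fell there (Pdgfra, Sox10 and Cnp), with a list median of -1.60. In HBEGF P1 cultures against fresh P1 cells (8.38 to 8.77), where Gfap rose, Pdgfra and Sox10 rose. Between the ages, neuronal genes averaged 7.51 to 7.91 in fresh P7 against 8.63 to 8.98 in fresh P1 cells, with 1 of 8 called (Gap43, lower). Microglia and macrophage genes averaged 6.59 to 7.33 against 5.76 to 6.17, with 2 of 8 called (Csf1r and P2ry12, higher). Of the endothelial genes, Cldn5 was called lower in fresh P7 cells. The part of all these cells in the results on the 4 genes was not tested.

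The wider filament system was read from lists of 62 partner genes, of which 58 were measured. Of 15 other intermediate filament genes, none was called in fresh P7 against fresh P1 cells (limma, with 1 gene at an unadjusted p under 0.05). Krt8, a keratin of simple epithelia, was 2.91 higher in HBEGF P1 cultures than in fresh P1 cells (adjusted p 2.73e-05), and 3.68 higher in HBEGF P7 (1.7e-06) and 3.50 higher in withdrawn P7 cultures (1.06e-06) than in fresh P7 cells. Its filament partner Krt18 was 2.69 higher in HBEGF P7 cultures (adjusted p 0.00108). Without HBEGF P7 replicate 2 these changes were 4.17 for Krt8 and 3.45 for Krt18 (adjusted p 1.68e-07 and 2.01e-05). Krt19, another simple keratin, averaged 10.03 in withdrawn P7 and 9.66 in serum P7 cultures, against 4.87 in HBEGF P7 cultures, changes of 5.16 and 4.79 (adjusted p 5.6e-05 and 8.75e-05), which were 5.02 and 4.66 without HBEGF P7 replicate 2. Krt19 was thus high in both P7 cultures that had seen serum, while Krt8 averaged 9.45 in withdrawn P7, 7.71 in serum P7 and 9.63 in HBEGF P7 cultures. In MD cultures, also grown in serum, Krt19 averaged 6.42 (5.41 to 7.32), against 5.92 in fresh P7 cells. Of the 15 genes, 3 rose and 1 fell in HBEGF P1 cultures, 2 rose in HBEGF P7, 2 in MD and 4 in serum P7, and 3 rose and 2 fell in withdrawn P7 cultures, each against its fresh cells. Of all genes, 4.38% rose in HBEGF P1, 4.78% in HBEGF P7, 10.1% in MD, 9.12% in serum P7 and 11.1% in withdrawn P7 cultures, and 4.49% fell in HBEGF P1 and 11.1% in withdrawn P7 cultures.

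In MD against HBEGF P1 cultures 4 of the 15 filament genes rose and 2 fell, where 8.81% of all genes rose and 9.57% fell, and without MD replicate 2 it was 2 that rose. Lmna, which encodes the A-type lamins of the nuclear envelope, was 2.59 higher (adjusted p 8.6e-07). Prph, peripherin, a type III filament protein of peripheral neurons, was 1.63 higher (adjusted p 1.82e-06), and Ina, the neuronal internexin, changed by -2.40 (adjusted p 0.000508). Lamin B1 (Lmnb1), which is needed in dividing nuclei, changed by -1.76 in withdrawn P7 cultures against fresh P7 cells (adjusted p 2.03e-05).

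Among 9 measured linkers and chaperones, the small heat shock proteins that bind filaments gave the largest changes. Cryab, αB-crystallin, which builds up with GFAP in Rosenthal fibres, was the single partner gene of the 58 called with age, 2.21 higher in fresh P7 than in fresh P1 cells (adjusted p 0.00121). It averaged 14.61 in MD cultures against 9.49 in fresh P1 cells, a change of 5.12 (adjusted p 4.38e-09). Hspb1, the small heat shock protein HSP27, averaged 14.26 in MD against 8.58 in HBEGF P1 cultures, a change of 5.68 (adjusted p 6.95e-07). It also averaged 14.29 in serum P7 against 9.11 in HBEGF P7 cultures, a change of 5.18 (adjusted p 8.99e-06) that was 4.36 without HBEGF P7 replicate 2. Hspb1 was thus high in all cultures that had seen serum, including the withdrawn ones (13.91), and low in both HBEGF cultures. Plec, plectin, which links filaments to other structures, was 2.12 higher in MD than in HBEGF P1 cultures (adjusted p 0.000316). Of these 9 genes 3 rose in each of MD, serum P7 and withdrawn P7 cultures against fresh cells, where 10.1%, 9.12% and 11.1% of all genes rose. In withdrawn P7 against HBEGF P7 cultures 4 rose, with 6.29% of all genes, but 1 without HBEGF P7 replicate 2 and 2 without withdrawn P7 replicate 3.

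**Figure D4:**
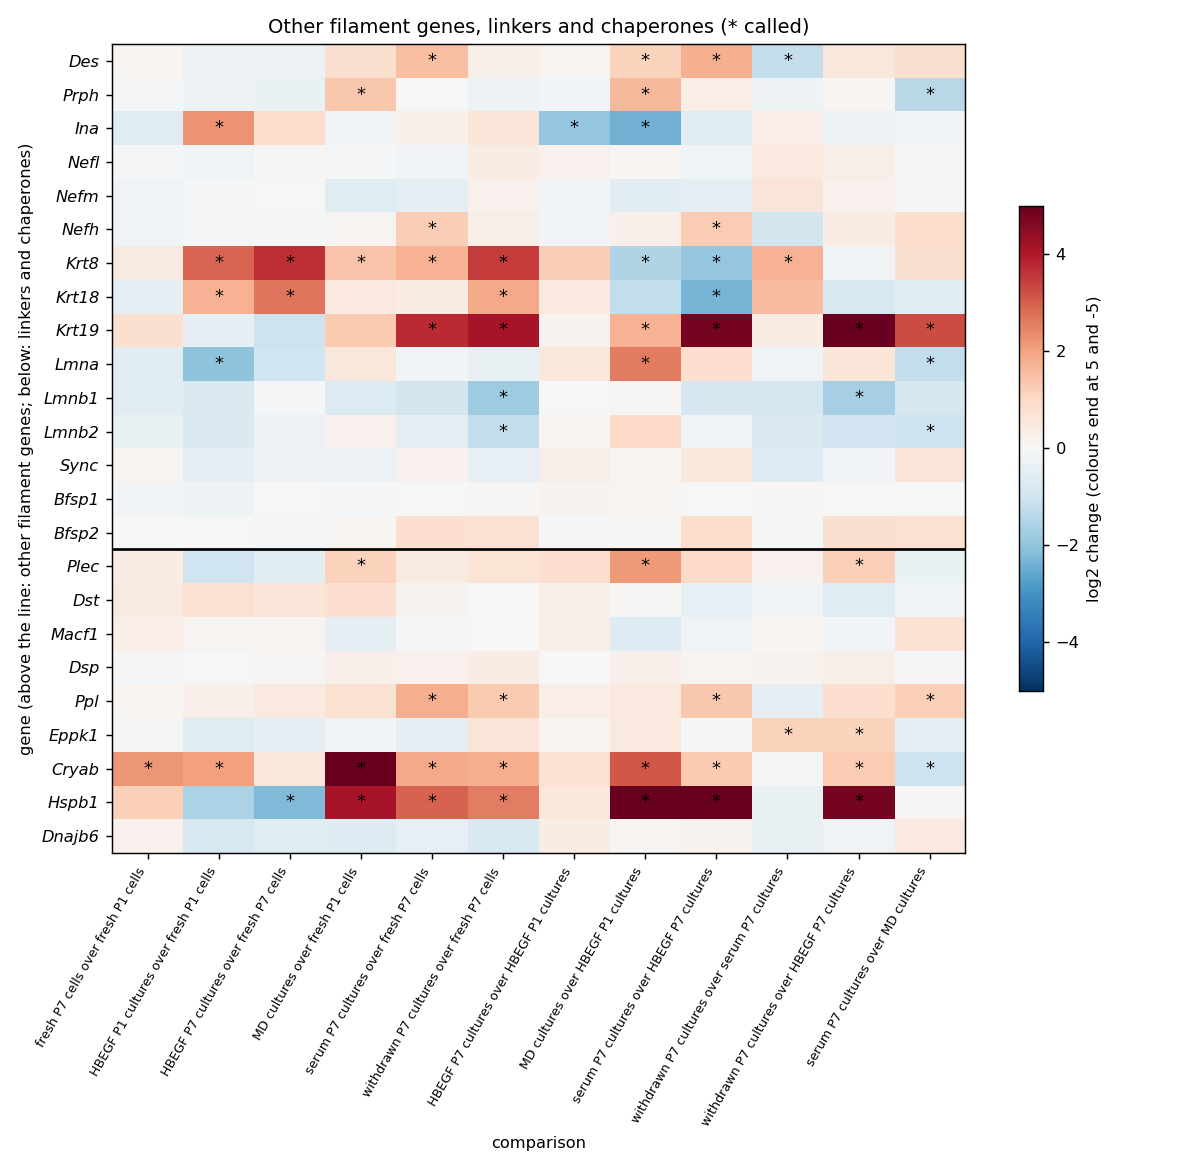
Log2 change (colour, cut at 5 and -5) of the 15 other intermediate filament genes (above the line) and 9 linkers and chaperones (below it) in the 12 comparisons, with a star for a called change. Cryab and Hspb1 carry the darkest cells of the lower block (5.12 for Cryab in MD over fresh P1 cells, 5.68 for Hspb1 in MD over HBEGF P1 cultures), and Krt19 those of the upper block (5.16 in withdrawn P7 over HBEGF P7 cultures).

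Phosphorylation takes filaments apart, and 10 genes of kinases known to act on them were listed, among them Cdk5r1, which encodes an activator of Cdk5. In MD against HBEGF P1 cultures 6 of 10 rose and 0 fell, where 8.81% of all genes rose, with a list median of 1.43 against 0.09 over all genes. They were Pak1 (2.66), Plk1 (2.38), Cdk1 (2.16), Aurkb (2.05), the protein kinase C gene Prkca (1.52) and Rock2 (1.35). Plk1, Cdk1 and Aurkb are kinases of mitosis and moved in the comparison in which the proliferation genes did. Pak1, a kinase controlled by Rac and Cdc42, rose in all P7 cultures against fresh P7 cells, by 3.39 in withdrawn P7 (adjusted p 4.02e-06), 3.77 in serum P7 (1.55e-06) and 1.73 in HBEGF P7 (0.00457) cultures, the last 2.01 without replicate 2. In withdrawn P7 against fresh P7 cells 3 of the 10 genes rose and 3 fell, where 11.1% of all genes rose and 11.1% fell, and 1 fell without fresh P7 replicate 3 or withdrawn P7 replicate 3. In withdrawn P7 against HBEGF P7 cultures 3 fell, where 5.42% of all genes fell, and limma called 0 lower without HBEGF P7 replicate 2.

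The regulators of Gfap transcription were read as 24 measured genes, most of them of the STAT3, BMP, Notch and NFI routes, with Olig2 and the DNA methyltransferase gene Dnmt1 beside them. More of them fell than rose in every culture against its fresh cells, with 1 rising and 7 falling in HBEGF P1, 1 and 8 in HBEGF P7, 2 and 9 in MD, 3 and 8 in serum P7 and 3 and 8 in withdrawn P7 cultures. In HBEGF P7 cultures 2 rose and 5 fell without replicate 2, and 0 rose without replicate 3. Of all genes, 4.49%, 5.51%, 9.43%, 9.04% and 11.1% fell in these comparisons, in the same order. List medians lay between -0.30 and -0.45, against 0.03 to 0.11 over all genes. The list was not sorted by whether a gene raises or lowers Gfap, so these counts and medians give no direction for Gfap. Stat3 encodes a transcription factor that activates Gfap after cytokine signals. It changed by -1.43 in HBEGF P1 (adjusted p 0.000954) and -2.16 in MD cultures (6.11e-06) against fresh P1 cells. Gfap changed by 1.90 and 0.93 in these comparisons, and whether the changes are linked was not tested. Hes5, a Notch target, changed by -5.49 in HBEGF P7 (9.52e-07, and -5.21 without replicate 2), -5.80 in serum P7 (2.15e-07) and -5.29 in withdrawn P7 cultures (5.07e-07) against fresh P7 cells. Bmp4, a ligand that promotes astrocyte fate, rose by 4.54 in withdrawn P7 cultures (adjusted p 2.32e-06) and by 2.73 in serum P7 cultures (0.000471).

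Between MD and HBEGF P1 cultures, where Gfap was 0.97 lower in MD, 3 regulators rose and 6 fell, beside the 8.81% and 9.57% of all genes given above. Clcf1, a cytokine of the CNTF receptor, rose by 3.21 (adjusted p 8.1e-06), and Bmp4 and Nfia, a transcription factor that switches on astrocyte genes, changed by -3.02 (adjusted p 0.000189) and -1.26 (adjusted p 4.71e-06). Nfia averaged 11.79 in MD, 12.08 in serum P7 and 12.22 in withdrawn P7 cultures, against 13.39 in fresh P7 cells. Gfap averaged 13.43, 14.69 and 14.61 in those cultures and 13.83 in fresh P7 cells. In serum P7 against MD cultures, where Gfap was 1.26 higher, Bmp4 was 3.53 higher (adjusted p 8.1e-05), Cntf, the ciliary neurotrophic factor gene, was 1.75 higher (adjusted p 0.00544) and Clcf1 changed by -2.91 (adjusted p 4.42e-05). Both comparisons share the MD arrays. The part of these regulators in the level of Gfap was not tested.

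For each of the 4 genes the other genes with the most similar log2 values over the 21 arrays were looked up. Gfap was most like Ptdss2 (r = 0.914), followed by Ssh3, Fbxo25, Cpne8 and Irgm2. Vim was most like Hdac1 (0.898), followed by Ube2u, Sft2d2, Rab11a and Nanp. Nes was most like Thoc3 (0.942), followed by Eif3b, Mcm2, Bop1 and Tcp1, of which Mcm2 is also a member of the proliferation list. Synm was most like Sema5a (0.929), followed by Fam149b1, Armcx1, Ltbp3 and Aamdc. The lists of 5 genes do not share a name between members. These r values describe arrays that share groups and treatments and carry no test.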

How the data were processed

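The authors deposited intensities on a linear scale. Per the submitters' processing notes these came from RMA. Which program ran RMA, and with which chip definition, is not given in the sources used here. Log2 was taken of the deposited intensities, which ran from 10 to 37801 with array medians from 128 to 146, and no dim probe set was dropped in the main setting. Of 31042 probe sets, 20826 carried 1 gene symbol, 436 several and 9780 none.

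Groups were compared with limma 3.58.1 in R 4.3.3 (lmFit, contrasts.fit, eBayes), with 7 group means, 14 residual and 2.89 prior degrees of freedom. The 4 genes and the partner lists were chosen with earlier results of these data known. The genes named from a partner list are called genes among the 4 largest changes of a comparison that is described. Nfia in MD against HBEGF P1 cultures, Prkca and Rock2 there, and Stat3 in HBEGF P1 cultures lie outside that rule and were chosen after their values were seen. The most similar genes are the 5 with the highest Pearson correlation over 21 arrays. Alternatives were quantile normalization, centred array medians, an offset, a filter on dim probe sets, averaged probe sets, a trended robust variance, separate fits, no fold limit, a replicate block and each array left out. Counts of partner genes with 1 array left out were added after seeing the data. Deviations from group means were correlated between same-numbered arrays, and all 3 pairs passed 0.1 in 5 of the 12 comparisons, namely MD and HBEGF P1 cultures against fresh P1 cells, MD and HBEGF P7 against HBEGF P1 cultures, and withdrawn P7 against serum P7 cultures. The labels do not say what a number marks. Of the listed genes, 58 of 62 partners and 63 of 65 markers were measured by a probe set of their own, and the others are not reported here. Promoter windows and motifs come from RefSeq (GRCr8), and those of Nes and Synm are not shown. On simulated arrays, changes of 1.5 and 2 log2 units were recovered in 90.0% and 97.2% of cases for serum P7 against HBEGF P7 cultures over 31042 probe sets. The median SE of a change over genes was 0.17, against 0.37 for Nes and 0.44 for Synm. These shares therefore do not give the recovery for Nes and Synm, and none is given for a change of 1. The number of arrays limits the precision. Replicates are biological per the labels, which do not say how many animals each came from.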

Additional observations from a re-analysis of the deposited data

Results flagged for a closer look

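In 3 of the 4 genes the contrast of serum P7 over HBEGF P7 cultures differed from that of MD over HBEGF P1 cultures by a test of the difference itself (limma). MD cells were not panned and HBEGF P1 cells were, so medium and preparation change together in the second contrast, and age differs between the contrasts, and these cannot be told apart. Gfap differed by 1.37 (adjusted p 0.0316), with its changes at 0.40 in serum P7 over HBEGF P7 cultures and -0.97 in MD over HBEGF P1 cultures. This call was lost when the groups compared were fitted alone (adjusted p 0.0847) and without any of 6 arrays, with adjusted p from 0.0577 to 0.0801. Nes differed by -2.28 (adjusted p 0.00788), with changes of -0.85 and 1.43. Synm differed by 2.71 (adjusted p 0.00736), with changes of 0.18 and -2.53. The Nes and Synm calls held with any 1 array left out, with values from -2.69 to -1.70 and from 1.92 to 3.12. Without HBEGF P7 replicate 2 the changes in serum P7 over HBEGF P7 cultures were 0.073 for Gfap, -0.27 for Nes and -0.61 for Synm. With all 3 Synm probe sets averaged the Synm difference was 0.77, under the limit of 1.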

How the results depend on the processing

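The number of the 4 genes called was computed again under each alternative. With the adjusted p as the only threshold it was 2 in fresh P7 against fresh P1 cells, 4 in MD against fresh P1 cells, 2 in serum P7 and 2 in withdrawn P7 cultures against fresh P7 cells, and 1 in HBEGF P7 cultures against fresh P7 cells and in serum P7 against HBEGF P7 cultures. The 4 in MD against fresh P1 cells include Nes at an adjusted p of 0.0493 in limma, which was 0.054 or more with any 1 array left out. With array medians centred the count was 3 in MD against fresh P1 cells. There the median of all genes shifted by 0.20, against 0.11 without centring. With all probe sets of a gene averaged it was 0 in MD against fresh P1 cells, 1 in MD against HBEGF P1 and 1 in withdrawn P7 against HBEGF P7 cultures, since the dim Synm probe sets dilute the bright one. Withdrawn P7 against HBEGF P7 cultures gave 1 with an offset of 16 before log2 and 0 with those groups fitted alone, and the cause was not tested. With 1 array left out the count ran from 0 to 1 in fresh P7 against fresh P1 cells, HBEGF P7 against fresh P7 cells and serum P7 against HBEGF P7 cultures, from 1 to 2 in MD against fresh P1 cells, and from 0 to 2 in withdrawn P7 against HBEGF P7 cultures. It ran from 2 to 3 in MD against HBEGF P1 cultures, in serum P7 against MD cultures and in the difference between the serum P7 and MD contrasts. Signs turned only in changes that were not called. With quantile normalization Vim in HBEGF P7 against HBEGF P1 cultures was 0.023, and with probe sets averaged Synm in serum P7 against fresh P7 cells was 0.042. With 1 array left out the changes in HBEGF P7 against HBEGF P1 cultures ran from -0.28 to 0.22 for Gfap, -0.12 to 0.10 for Vim, -0.11 to 0.87 for Nes and -0.99 to 0.22 for Synm. Synm ran from -0.80 to 0.40 in HBEGF P7 against fresh P7 cells and from -0.61 to 0.60 in serum P7 against HBEGF P7 cultures. Nes ran from -0.23 to 0.21 in serum P7 against fresh P7 cells, Gfap from -0.13 to 0.025 and Vim from -0.034 to 0.0076 in withdrawn P7 against serum P7 cultures, and Gfap from -0.0044 to 0.49 in withdrawn P7 against HBEGF P7 cultures. With the replicate number as a block over all groups, no count of members changed, and the genes called in fresh P7 against fresh P1 cells were 249 against 221 without the block. In a block fit of the compared groups alone, chosen after seeing the data for the 5 comparisons whose numbers paired, the count was 1 (Synm, higher) in withdrawn P7 against serum P7 cultures, and no other call of the 4 genes changed.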
